A study of Mus musculus with 6 samples.

Results

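The vacuolar-type proton pump (V-ATPase) is a large enzyme of many subunits, and 10 of its genes were followed here in single epithelial cells of the mouse submandibular gland. The 10 genes were taken by symbol from the feature tables of all 3 count matrices, where each was present, out of 32285 genes. They were Atp6v0d2, Atp6v1b1, Atp6v0a4, Atp6v1c2 and Atp6v1g3, which are paralogs known for expression in few tissues, and Atp6v1a, Atp6v1h, Atp6v0c, Atp6v0d1 and Atp6v1b2, which are used by most cells. The grouping into 5 tissue-restricted and 5 general genes rests on textbook knowledge of the paralogs and not on these data.

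The pump has a cytosolic V1 sector that splits ATP and a membrane V0 sector that carries protons across. In V1 the A and B subunits (Atp6v1a; Atp6v1b1 or Atp6v1b2) form the catalytic ring, the C and G subunits (Atp6v1c2, Atp6v1g3) belong to the stalks that hold the sectors together, and H (Atp6v1h) is a regulatory subunit at the joint. In V0 the c subunits (Atp6v0c) form the rotating ring, the a subunit (Atp6v0a4 among others) provides the proton path and the d subunit (Atp6v0d1 or Atp6v0d2) couples the ring to the central stalk. Most cells keep the pump in lysosomes and other acidic organelles. Acid-secreting cells such as kidney intercalated cells also place it in the plasma membrane, with B1, a4, C2, G3 and d2 paralogs, and the forkhead factor Foxi1 is known to drive several of these genes there. Ionocytes are rare or scattered epithelial cells with Foxi1, Cftr and many V-ATPase transcripts.

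RNA was counted with 10x Genomics 3' v3 droplet libraries in 3 groups of female wild-type C57BL/6J mice. The irradiated epithelium came from Epcam-positive cells of glands taken 90 days after 30 Gy given to the left submandibular gland. The basal sort held Epcam-positive, Cd49f-high cells of untreated glands, and the untreated epithelium held all Epcam-positive cells of untreated glands. Dead cells and cells with Cd3, Cd16/32, Cd31 or Cd45 were sorted out in all groups. A group is a single library in which 3 mice were mixed and later separated by their hashtag antibodies, so n = 3 mice per group, and group, library and sorting run cannot be told apart. The labels give 8 to 10 weeks of age for every mouse, which cannot be the age of the irradiated mice at collection, so age and irradiation cannot be told apart either.

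The filters on gene number and mitochondrial share kept 2629 of 3319 irradiated, 4418 of 5044 basal-sort and 4093 of 8277 untreated barcodes. Deposited barcodes had a median mitochondrial share of 5.25% in the irradiated, 5.19% in the basal-sort and 19.3% in the untreated library. What part the dropped barcodes had in the group differences was not tested. After filtering, 2062 irradiated, 3073 basal-sort and 2090 untreated cells had a mouse. Unique molecular identifiers (UMIs, counted RNA molecules) per mouse ranged over 7126772 to 27813793 in the irradiated epithelium, 9453656 to 18047682 in the basal sort and 11368354 to 14466948 in the untreated epithelium. Mouse 2 gave 1259 of the irradiated cells. No hashtag call was possible for 11.2% of irradiated, 22.6% of basal-sort and 43.4% of untreated cells that passed the filters. Deposited cell barcodes shared by pairs of libraries numbered 8 (irradiated and untreated), 1 (basal sort and irradiated) and 15 (basal sort and untreated).

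Cell classes were rebuilt from marker genes after all V-ATPase genes had been taken out of the clustering, so no pump gene placed a cell. Ionocyte-like cells numbered 635 in the irradiated and 520 in the untreated epithelium. They lay in separate clusters for the 2 groups: the one with 627 irradiated cells had 7 of 10 ionocyte markers raised, and the one with 519 untreated cells had 8. Foxi1 averaged 257 ± 34.6 CPM (the UMI count of the summed cells, scaled to a common total) in irradiated and 309 ± 44.7 CPM in untreated ionocyte-like cells, against 0.964 ± 0.420 CPM and 1.03 ± 0.894 CPM in granular duct-like cells (SD over 3 mice). Granular duct-like cells, named by markers of the kallikrein- and Egf-secreting duct cells, numbered 1128 in the irradiated and 621 in the untreated epithelium. These too lay mostly in different clusters, of 830 and 197 irradiated cells, of 439 untreated cells, and of 98 irradiated with 178 untreated cells. Reg3g led the cluster of 830 and the interferon-responsive gene Ifit3b the cluster of 197. The cluster of 439 untreated cells raised 7 of 12 granular duct markers. With each library clustered alone, 628 irradiated and 239 untreated cells were named granular duct-like. In that setting a cluster of 193 untreated cells was named striated duct-like and one of 185 luminal duct-like, and one of 247 irradiated cells had no name. The class may thus hold more than secretory granular duct cells. A cluster of 67 untreated cells raised 11 of 12 granular duct and 7 of 10 ionocyte markers and was set aside as mixed. An unnamed cluster of low UMI content (114 irradiated and 30 untreated cells) raised 6 of 10 ionocyte markers and was left out as well. Both clusters were counted in with the ionocyte-like cells in an alternative setting.

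Promoter sequences (GRCm38.p6), 250 bases before to 50 after a transcript start, were found for 7 of the 10 genes. None was found for Atp6v0d2, Atp6v1h or Atp6v1b2, although all 10 are annotated as genes in RefSeq. The sequences shown belong to the gene with the largest irradiation difference in ionocyte-like cells, to the B1 gene, and to the catalytic A gene. Capitals mark TGTTTA (the forkhead core, as bound by Foxi1-type factors) and TCACGTG with its overlapping reverse-strand match (the core of the CLEAR element bound by the lysosomal regulator Tfeb). Both strands were searched, and the CLEAR core holds an E-box (CANNTG).
Atp6v1g3: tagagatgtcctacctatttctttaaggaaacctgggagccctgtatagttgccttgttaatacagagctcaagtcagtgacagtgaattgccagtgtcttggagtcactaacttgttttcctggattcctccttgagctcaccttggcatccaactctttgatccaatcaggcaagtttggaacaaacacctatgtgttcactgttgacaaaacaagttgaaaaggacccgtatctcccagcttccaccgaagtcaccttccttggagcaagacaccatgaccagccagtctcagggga
Atp6v1b1: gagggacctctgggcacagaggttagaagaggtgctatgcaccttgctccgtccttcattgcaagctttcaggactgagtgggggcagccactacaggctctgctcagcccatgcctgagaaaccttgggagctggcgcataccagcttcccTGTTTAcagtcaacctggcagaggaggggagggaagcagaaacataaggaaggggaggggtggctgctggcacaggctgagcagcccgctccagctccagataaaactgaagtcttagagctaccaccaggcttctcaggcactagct
Atp6v1a: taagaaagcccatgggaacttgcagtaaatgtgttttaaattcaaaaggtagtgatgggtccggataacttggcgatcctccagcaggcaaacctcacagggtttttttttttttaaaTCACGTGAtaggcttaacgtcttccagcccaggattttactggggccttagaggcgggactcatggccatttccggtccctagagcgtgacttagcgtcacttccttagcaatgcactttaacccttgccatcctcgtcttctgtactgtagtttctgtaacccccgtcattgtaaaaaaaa
The Atp6v1g3 sequence is chr1:138273488-138273787 on the plus strand, and neither core was in this window. The Atp6v1b1 sequence is chr6:83742767-83743066 on the plus strand, with the forkhead core starting at base -98 from the transcript start. The Atp6v1a sequence is chr16:44139210-44139509 on the minus strand, with the CLEAR core starting at base -132 from the transcript start used. The annotated Atp6v1a gene runs from 44085402 to 44139702, so this window lies inside it. Of the other matched genes, Atp6v0d1 held the CLEAR core, at base -4, and Atp6v0a4, Atp6v0c and Atp6v1c2 held neither core. Among 32851 promoters of the same length, 13.4% held the forkhead core, 3.77% the CLEAR core and 72.3% an E-box. A match is a description of these letters and not a site shown to be used.

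In the untreated epithelium, pump transcripts were highest in ionocyte-like cells for most of the genes. Levels are the CPM of a class, given per mouse in the order of mice 1, 2 and 3. CPM share a fixed total within a class. Of it, the summed granular duct markers took 292551 to 334138 CPM in untreated granular duct-like cells, against 8997 to 12108 CPM in ionocyte-like cells. What part this had in the differences between classes was not tested. Atp6v0d2 had 436, 451 and 441 CPM in ionocyte-like cells, against 126, 139 and 120 CPM in granular duct-like, 9.60, 17.9 and 4.47 CPM in intercalated duct-like and 0.787 to 2.01 CPM in acinar-like cells. No class overlapped its neighbour in that order. Atp6v1g3 had 164, 124 and 125 CPM in ionocyte-like cells, against 0.546, 0.961 and 0.283 CPM in granular duct-like cells, 1 UMI in all intercalated duct-like cells and none in acinar-like cells. That was a difference of 231-fold between the class means of ionocyte-like and granular duct-like cells.

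Atp6v1b1 had another order, with intercalated duct-like cells after ionocyte-like cells. It had 135, 131 and 115 CPM in ionocyte-like cells, against 67.2, 85.5 and 79.8 CPM in intercalated duct-like cells and 4.10, 4.80 and 4.53 CPM in granular duct-like cells. In single intercalated duct-like cells 209 of 530 held an Atp6v1b1 UMI (39.4%, exact 95% interval 35.2 to 43.7%, median 6610 UMIs per cell), while 1 of the 530 held an Atp6v1g3 UMI (0.189%). In granular duct-like cells, at a higher median of 18128 UMIs, 6.92% held an Atp6v1b1 UMI. The small intercalated duct-like set of the basal sort had the same gene at 80.3, 141 and 159 CPM, so the B1 transcript was found in this class in both libraries.

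Atp6v1c2 did not separate ionocyte-like from granular duct-like cells. It had 27.9, 42.4 and 28.3 CPM in ionocyte-like cells, against 42.9, 31.0 and 37.4 CPM in granular duct-like cells, and these ranges overlapped. Its level was 0.926 CPM on average in intercalated duct-like cells and 0.497 CPM in acinar-like cells. Atp6v0a4 was near absent, with 10 UMIs in all kept cells of the 3 libraries and none in untreated ionocyte-like cells, where a count of 0 allows up to 0.513 CPM.

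Of the general genes, the catalytic Atp6v1a had 240, 250 and 261 CPM in ionocyte-like cells, against 116, 114 and 108 CPM in granular duct-like cells and 75.7 to 95.8 CPM in intercalated duct-like cells. The ring gene Atp6v0c had 1235, 1326 and 1244 CPM in ionocyte-like cells, against 527 to 549 CPM in intercalated duct-like and 325, 324 and 364 CPM in granular duct-like cells. Both were thus 2.22-fold and 3.76-fold higher in ionocyte-like than in granular duct-like cells by the ratio of means. Atp6v1h (85.4 ± 3.45 against 63.9 ± 5.65 CPM) and Atp6v0d1 (56.6 against 32.4 CPM) were higher by 1.34-fold and 1.75-fold, and Atp6v1b2 in ionocyte-like cells (22.2 to 36.1 CPM) overlapped intercalated duct-like cells (22.0 to 28.1 CPM). Among these 4 classes all 5 general genes were lowest in acinar-like cells, where Atp6v1h averaged 6.80 CPM and Atp6v0c 82.0 CPM. These folds and orders are of CPM. The part of the abundant marker transcripts of granular duct-like and acinar-like cells in them was not tested. Pseudogenes of Atp6v0c are annotated in the mouse genome, and how reads shared with them were counted is not given in the sources used here.

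In all, 3 of 5 tissue-restricted and 4 of 5 general genes had their highest level in untreated ionocyte-like cells with no overlap with the next class. For comparison, 20.3% of the 8111 genes with at least 10 CPM in a class did so. With cells of at most 10% mitochondrial UMIs the count was 6 genes, and Atp6v1h was the one that dropped out.

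**Figure D1:**
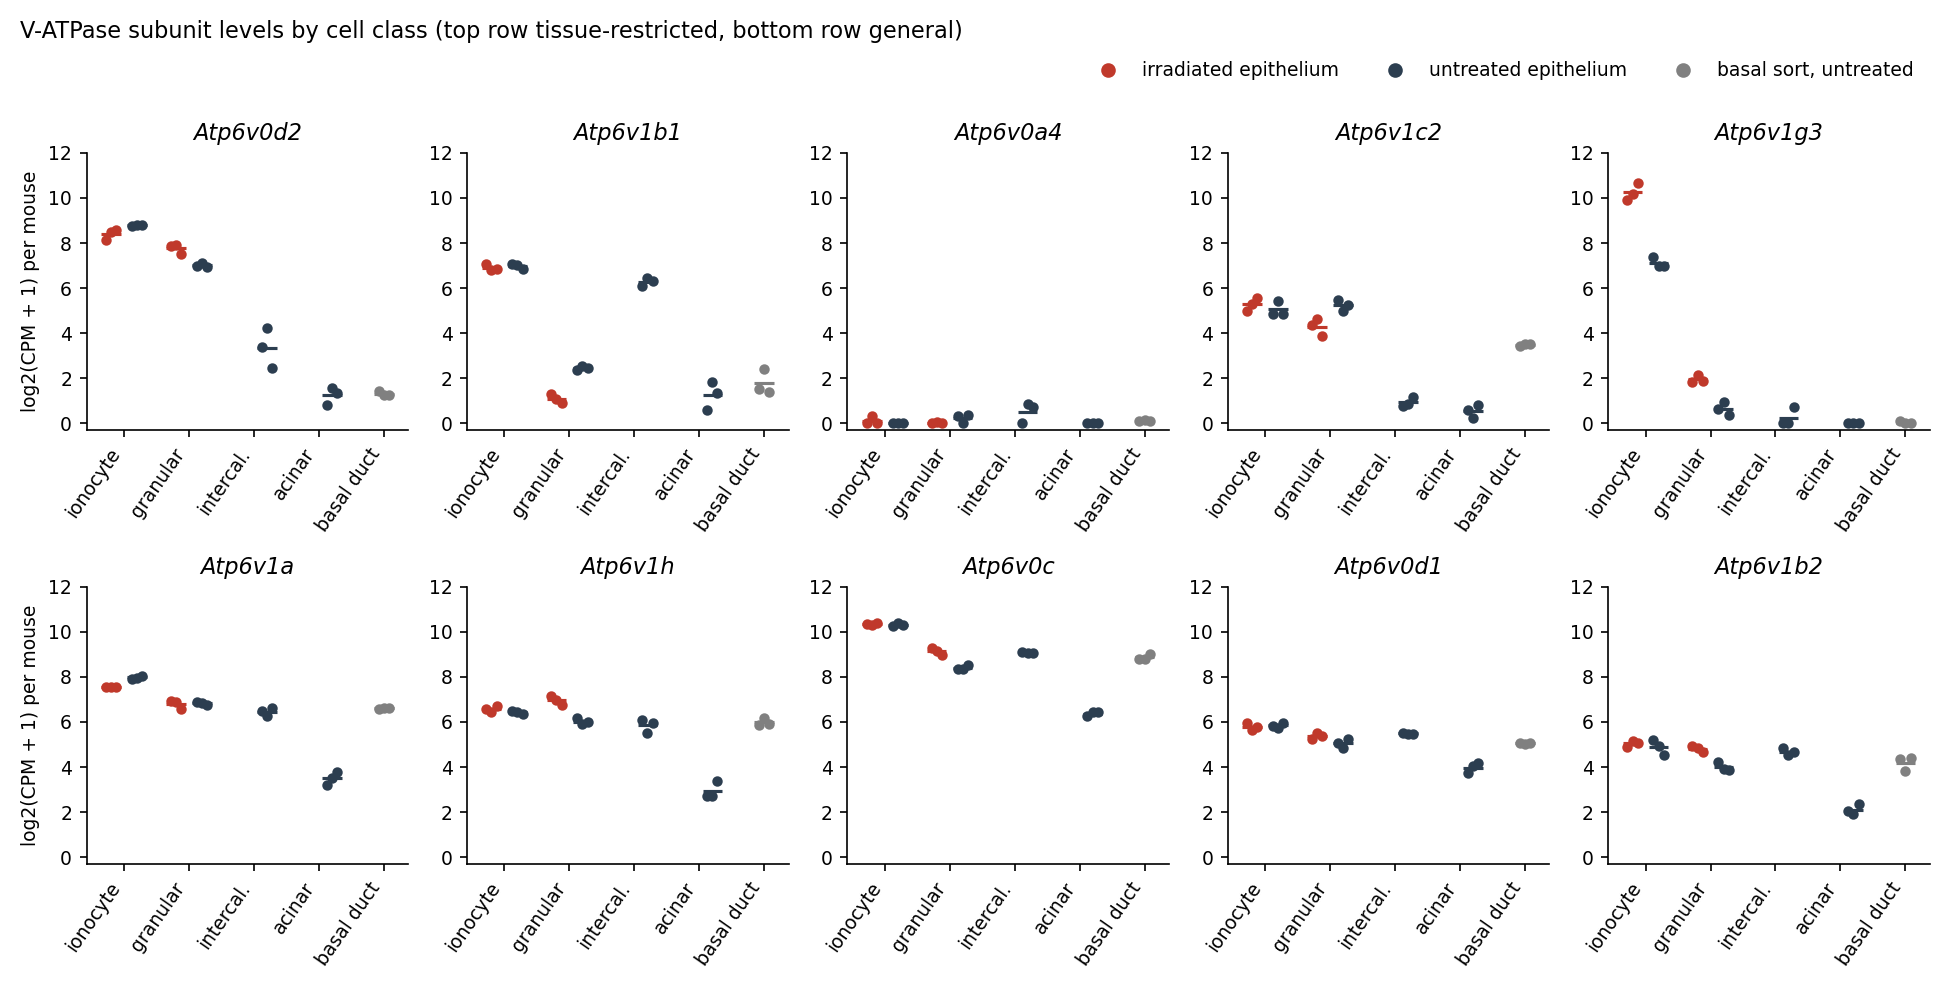
Levels of the 10 subunit genes as log2(CPM + 1) for each mouse (points, horizontal lines are means of 3 mice) in 5 cell classes, with irradiated left of untreated epithelium and the basal duct-like cells of the basal sort at the right. Irradiated intercalated duct-like and acinar-like cells are not drawn because mice held too few of them. Atp6v0d2, Atp6v1b1 and Atp6v1g3 stand highest in ionocyte-like cells, Atp6v0a4 lies near 0 everywhere, and Atp6v1g3 in irradiated ionocyte-like cells lies above all untreated mice.

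In irradiated ionocyte-like cells the G3 subunit gene was the one member that was higher, and it was higher by 9.27-fold. Atp6v1g3 (GRCm38.p6 chr1:138273738-138289462) had 958, 1160 and 1599 CPM in irradiated ionocyte-like cells, against 164, 124 and 125 CPM in untreated ones. The groups did not overlap, and the lowest irradiated mouse lay far above the highest untreated mouse. The log2 fold change was 3.21 ± 0.17 (SE; edgeR's quasi-likelihood test, Benjamini-Hochberg adjusted p = 8.9e-09). It ranged over 2.94 to 3.37 in 14 alternative settings and passed the test in each of them.

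The catalytic A subunit gene moved the other way. Atp6v1a had 188, 184 and 185 CPM in irradiated ionocyte-like cells, against 240, 250 and 261 CPM in untreated ones, a fold of 0.765 without overlap of the mice (log2 fold change -0.39 ± 0.08, edgeR adjusted p = 0.0036). Atp6v0d2 had 279, 361 and 381 CPM in irradiated cells, against 436, 451 and 441 CPM in untreated ones (log2 fold change -0.32 ± 0.11, edgeR adjusted p = 0.038). The call of Atp6v0d2 was lost without irradiated mouse 1 (log2 fold change -0.20, adjusted p = 0.10), without untreated mouse 2 or 3, and in 3 further settings, among which its adjusted p ran up to 0.12. With cells of at most 10% mitochondrial UMIs neither fall passed the test, with log2 fold changes of -0.24 for Atp6v1a and -0.37 for Atp6v0d2.

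The other pump genes of the class did not pass the test. Atp6v1b1 had 135, 111 and 113 CPM in irradiated ionocyte-like cells, against 135, 131 and 115 CPM in untreated ones, and these overlapped (edgeR adjusted p = 0.66). Atp6v0c averaged 1303 ± 29.8 CPM in irradiated and 1268 ± 50.1 CPM in untreated ionocyte-like cells (edgeR adjusted p = 0.40). Atp6v1c2 averaged 38.3 ± 7.90 CPM in irradiated and 32.9 ± 8.26 CPM in untreated cells, Atp6v1h 94.3 ± 9.09 CPM in irradiated and 85.4 ± 3.45 CPM in untreated cells, and Atp6v0d1 and Atp6v1b2 overlapped between the groups as well. Atp6v0a4 had 2 UMIs in irradiated ionocyte-like cells, both of mouse 2, and was too low to be tested.

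So 3 of the 9 tested members were called in ionocyte-like cells, 1 higher and 2 lower, where 26.2% of all tested genes were called (15.6% higher and 10.7% lower). The mitochondrial share of the same cells differed between the groups: its median per mouse was 5.45 to 6.17% in irradiated and 11.9 to 12.3% in untreated ionocyte-like cells. The summed 12 granular duct markers had 3450 to 5162 CPM in irradiated and 8997 to 12108 CPM in untreated ionocyte-like cells, with 0 of 12 higher in irradiated cells, and the acinar markers 10.3 to 23.1 CPM in irradiated and 894 to 2573 CPM in untreated ones. The summed ionocyte markers had 2201 to 2735 CPM in irradiated and 3293 to 3629 CPM in untreated ionocyte-like cells, with 3 of 10 higher in irradiated cells (Stap1, P2ry14 and Coch). The part of these differences in the pump results was not tested, except that Atp6v1g3 kept its call in cells of at most 10% mitochondrial UMIs.

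The Atp6v1g3 difference was spread over the ionocyte-like cells of each mouse. An Atp6v1g3 UMI was found in 547 of 635 irradiated cells (86.1%, exact 95% interval 83.2 to 88.7%) and in 220 of 520 untreated cells (42.3%, 38.0 to 46.7%), at median depths of 17093 and 11121 UMIs. Thinned to 2000 UMIs per cell, which left out 6 irradiated and 11 untreated cells, the shares were 54.8, 61.6 and 75.9% in the irradiated mice and 20.2, 12.1 and 13.9% in the untreated mice. Granular duct-like cells were taken as a background, although free RNA from other cells and expression of the gene cannot be told apart in them. Among them 7.00% of irradiated and 0.805% of untreated cells held an Atp6v1g3 UMI, at median depths of 23691 and 18128 UMIs. The median irradiated ionocyte-like cell had 846 CPM and the median untreated cell 0 CPM, with 90th percentiles of 3095 CPM and 424 CPM. Cells above 3000 CPM made up 7.94, 9.46 and 16.1% of the irradiated and 0, 0 and 0% of the untreated ionocyte-like cells of a mouse. These intervals cover counting error only.

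**Figure D2:**
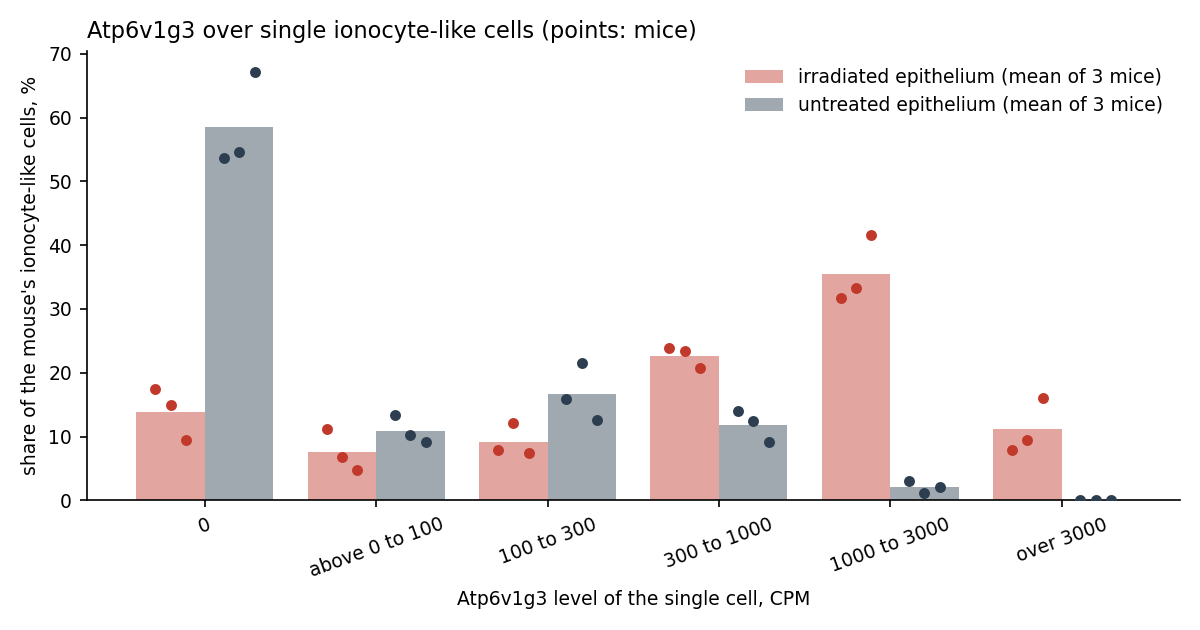
Share of each mouse's ionocyte-like cells (vertical axis, %) in 6 ranges of the single cell's Atp6v1g3 level (horizontal axis, CPM), with irradiated left of untreated; bars are means of 3 mice and points are mice. Cells at 0 CPM were 9.40 to 17.5% of the irradiated and 53.7 to 67.1% of the untreated cells.

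In irradiated granular duct-like cells 3 of 5 general genes (Atp6v1h, Atp6v0c and Atp6v1b2) and the restricted d2 and G3 genes were higher, and the B1 and C2 genes were lower. Atp6v1h had 143, 126 and 107 CPM in irradiated granular duct-like cells, against 70.2, 59.3 and 62.1 CPM in untreated ones (1.91-fold, log2 fold change 0.93 ± 0.11, edgeR adjusted p = 6.0e-05). Atp6v0c had 617, 566 and 496 CPM in irradiated and 325, 324 and 364 CPM in untreated cells (1.62-fold, edgeR adjusted p = 2.2e-04). Atp6v0d2, one of the restricted genes, had 234, 238 and 181 CPM in irradiated and 126, 139 and 120 CPM in untreated cells (1.65-fold, edgeR adjusted p = 4.0e-04). In each of these the irradiated mice lay above all untreated mice.

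Atp6v1b2, the general B subunit gene, rose 1.73-fold (29.4, 27.6 and 24.1 CPM in irradiated, against 17.7, 14.2 and 13.6 CPM in untreated granular duct-like cells; edgeR adjusted p = 8.3e-04). Its paralog Atp6v1b1 had 1.49, 1.11 and 0.844 CPM in irradiated and 4.10, 4.80 and 4.53 CPM in untreated cells, which rests on 33 and 51 UMIs (log2 fold change -2.03 ± 0.29, edgeR adjusted p = 2.6e-04). The restricted C gene Atp6v1c2 had 19.5, 24.1 and 13.6 CPM in irradiated and 42.9, 31.0 and 37.4 CPM in untreated cells, a fold of 0.513 (edgeR adjusted p = 0.0012). Thus the counts of the 2 B genes moved in opposite directions in this class. Atp6v1b1 had 67.2 to 85.5 CPM in untreated intercalated duct-like cells. The part of free RNA from other classes in its granular duct-like fall was not tested.

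Atp6v1g3 was called higher in granular duct-like cells too, at 2.60, 3.38 and 2.67 CPM in irradiated, against 0.546, 0.961 and 0.283 CPM in untreated cells, or 91 and 7 UMIs (log2 fold change 2.21 ± 0.43, edgeR adjusted p = 0.0018). These levels lie beside Foxi1, the ionocyte factor, at 0.563 to 1.40 CPM in irradiated and 0 to 1.64 CPM in untreated granular duct-like cells, so free RNA from ionocyte-like cells cannot be told apart from expression here. Atp6v1a had 121, 116 and 95.7 CPM in irradiated and 116, 114 and 108 CPM in untreated granular duct-like cells (edgeR adjusted p = 0.65), and Atp6v0d1 had 36.8, 44.2 and 40.2 CPM in irradiated and 32.5, 28.1 and 36.6 CPM in untreated ones (adjusted p = 0.083).

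In granular duct-like cells 7 of 9 tested members were called, 5 higher and 2 lower, where 38.0% of all tested genes were called (19.0% higher and 19.0% lower). Median mitochondrial shares per mouse were 3.55 to 4.21% in irradiated and 9.96 to 11.0% in untreated granular duct-like cells. The 10 ionocyte markers summed to 259 to 293 CPM in irradiated and 543 to 597 CPM in untreated granular duct-like cells, with 2 of 10 higher in irradiated cells (Cftr and P2ry14), and Ascl3 had 0.281 to 1.11 CPM in irradiated and 3.68 to 6.28 CPM in untreated ones. Acinar markers summed to 7.60 to 19.0 CPM in irradiated and 534 to 641 CPM in untreated granular duct-like cells. What part these had in the lower Atp6v1b1 count was not tested.

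**Figure D3:**
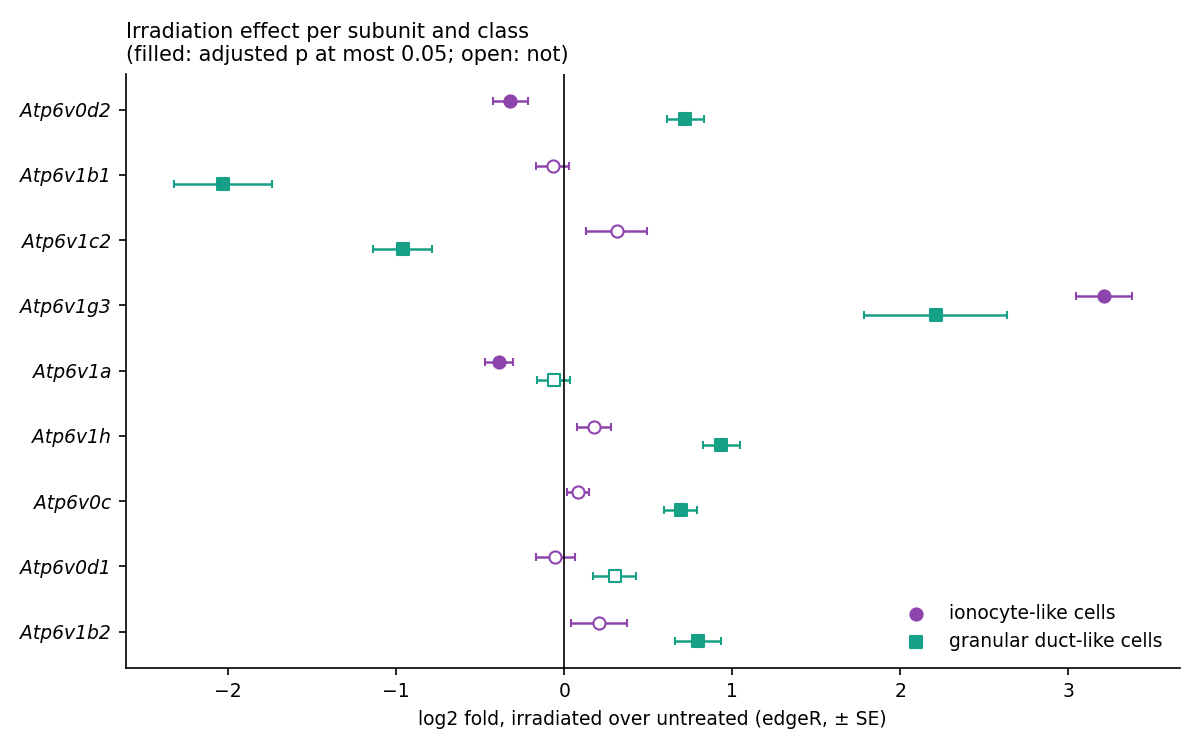
Log2 fold change of irradiated over untreated epithelium (horizontal axis, edgeR, bars are SE) for the 9 tested subunit genes in ionocyte-like cells (circles) and granular duct-like cells (squares); filled symbols passed an adjusted p of 0.05. Atp6v1g3 lies at 3.21 in ionocyte-like cells, and Atp6v1h, Atp6v0c, Atp6v1b2 and Atp6v0d2 lie right of 0 in granular duct-like cells.

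The 2 classes were then compared by an interaction term, which asks whether the irradiation difference of ionocyte-like cells differed from that of granular duct-like cells. Each mouse gave both sums, and the mouse was a block in this fit. The term passed the test for 5 of 9 members, 2 with a positive and 3 with a negative term, where 11.5% of all tested genes did (5.51% positive and 6.03% negative). Atp6v0d2 differed by a log2 value of -1.06 ± 0.15 (edgeR adjusted p = 1.2e-04), being lower in irradiated ionocyte-like cells and higher in irradiated granular duct-like cells. Because of this the ionocyte-like level of Atp6v0d2 was 1.56 times the granular duct-like level in the irradiated epithelium, against 3.44 times in the untreated epithelium.

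Atp6v1h differed by -0.75 ± 0.15 (edgeR adjusted p = 0.0023), and its class order in CPM turned round. In the irradiated epithelium its ionocyte-like level was 0.752 times the granular duct-like level, against 1.34 times in the untreated epithelium. The interaction term does not test that order. The part of the granular duct markers, which take up much of the CPM of their own class, in these ratios was not tested. Atp6v0c differed by -0.63 ± 0.11 (edgeR adjusted p = 9.8e-04), with ratios of 2.33 in the irradiated and 3.76 in the untreated epithelium. The 2 positive terms were those of Atp6v1b1 (1.94 ± 0.29, edgeR adjusted p = 2.1e-04) and Atp6v1c2 (1.24 ± 0.27, edgeR adjusted p = 0.0057), both lower in irradiated granular duct-like cells. The Atp6v1b1 term rests on few UMIs in granular duct-like cells, and the part of free RNA in it was not tested. Atp6v1g3 (0.99 ± 0.58, edgeR adjusted p = 0.37), Atp6v1a, Atp6v0d1 and Atp6v1b2 did not pass. For these last 3 genes the per-mouse ratios of ionocyte-like to granular duct-like level are given without a test. They were 1.55 to 1.93 in irradiated and 2.06 to 2.43 in untreated mice for Atp6v1a. Atp6v0d1 had ratios of 1.10 to 1.65 in irradiated and 1.67 to 1.88 in untreated mice. Those of Atp6v1b2 were 0.983 to 1.35 in irradiated and 1.63 to 2.08 in untreated mice. How many of all genes have ratios that part in this way was not counted.

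Where a subunit has paralogs, the share of the paralogs' UMIs that the restricted one took was compared per mouse. Shares are of UMIs counted at transcript 3' ends and are not divided by length. In ionocyte-like cells Atp6v1g3 took 67.4, 69.4 and 75.2% of G subunit UMIs (with Atp6v1g1 and Atp6v1g2) in irradiated mice, against 29.2, 21.8 and 25.0% in untreated mice, so the most abundant G transcript was Atp6v1g3 in irradiated and Atp6v1g1 in untreated cells. The B1 share of Atp6v1b1 over both B genes was 78.7 ± 3.26% in irradiated and 81.5 ± 2.52% in untreated ionocyte-like cells (exact two-sided permutation test, p = 0.3). Atp6v0d2 took 85.9 ± 3.30% of d subunit UMIs in irradiated and 88.6 ± 0.847% in untreated ionocyte-like cells (exact permutation p = 0.2).

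With Atp6v0a4 near absent, the a subunit UMIs of ionocyte-like cells came from 3 other genes. Tcirg1, the a3 gene known from osteoclasts and lysosomes, took 40.4 ± 3.94% in irradiated and 30.7 ± 3.43% in untreated ionocyte-like cells. Atp6v0a1 took 23.1 ± 3.73% in irradiated and 32.8 ± 1.66% in untreated cells, and Atp6v0a2 36.4 ± 1.72% in irradiated and 36.5 ± 2.95% in untreated cells.

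In granular duct-like cells Atp6v1b1 took 4.02 ± 0.728% of B subunit UMIs in irradiated and 23.0 ± 3.70% in untreated mice. The part of free RNA in this B1 share was not tested. Atp6v1c2 took 41.0 ± 3.61% of C subunit UMIs in irradiated and 64.6 ± 3.48% in untreated mice, and Atp6v1g3 2.01 ± 0.346% of G subunit UMIs in irradiated and 0.658 ± 0.358% in untreated mice. These 3 shares and the G3 share of ionocyte-like cells were the 4 of 10 compared that did not overlap. Each had an exact permutation p of 0.1, the smallest that 3 mice against 3 allow, and 0.25 after adjustment over the 10, so none passed a threshold of 0.05. In cells of at most 10% mitochondrial UMIs the G3 share of granular duct-like cells turned to -0.24 percentage points, irradiated minus untreated.

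**Figure D4:**
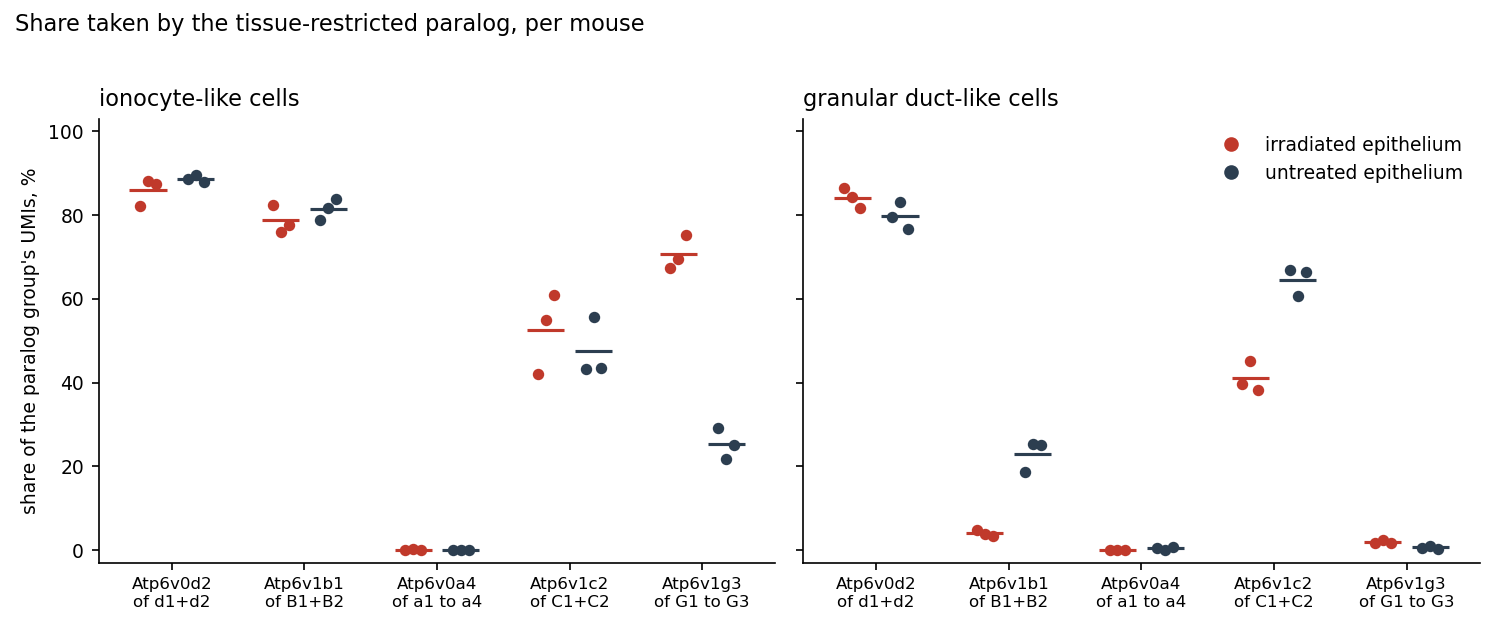
Share of a paralog group's UMIs taken by the restricted gene (vertical axis, %), per mouse (points, lines are means) in ionocyte-like cells (left) and granular duct-like cells (right), with irradiated left of untreated. The Atp6v1g3 share lies between 67.4 and 75.2% in irradiated and between 21.8 and 29.2% in untreated ionocyte-like cells.

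Summed over all kept cells of a mouse, 6 of 9 tested members were called in the irradiated epithelium, 5 higher and 1 lower, where 40.2% of all tested genes were called (20.6% higher and 19.6% lower). Atp6v1g3 had 147, 326 and 427 CPM in irradiated and 34.2, 22.2 and 18.5 CPM in untreated mice (log2 fold change 3.31, edgeR adjusted p = 3.1e-04). Atp6v1h (log2 fold change 0.96), Atp6v1b2 (0.65), Atp6v0d2 (0.64) and Atp6v0c (0.47) also rose. In such sums a changed number of cells of a class and a changed level per cell cannot be told apart, and granular duct-like cells were 53.1 to 62.1% of a mouse's cells in the irradiated and 27.3 to 31.7% in the untreated epithelium. Ionocyte-like cells were 18.2 to 33.6% of a mouse's cells in the irradiated and 21.9 to 28.9% in the untreated epithelium. These shares leave out the mixed and the low-UMI cluster, which raised ionocyte markers and held unlike numbers of irradiated and untreated cells. The acinar-like clusters held 108 and 82 untreated but 8 and 1 irradiated cells. Acinar markers over all kept cells summed to 11.1 to 846 CPM in irradiated and 17350 to 22376 CPM in untreated mice. The part of the acinar-like cells in the values over all cells was not tested. Atp6v1b1 had a log2 fold change of -0.42 (edgeR adjusted p = 0.044), a call that was lost in 9 of 12 alternatives, where its adjusted p ran from 0.014 to 0.94.

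In the basal sort d2, G3 and B1 transcripts were far lower than in the untreated epithelium, and C2 was lower by less. Atp6v0d2 had 2.66, 2.12 and 1.89 CPM in the basal sort, against 137, 121 and 110 CPM in the untreated epithelium (log2 fold change -6.27 by edgeR). Atp6v1g3 had 1 UMI in the basal sort and 947 in the untreated epithelium, which is a ratio of 1042 in CPM, untreated over basal, with an exact 95% counting interval of 186 to 41183. Atp6v1b1 had 2.33, 10.0 and 2.80 CPM in the basal sort, against 38.7, 29.7 and 30.9 CPM in the untreated epithelium, and the highest basal mouse was the one with most intercalated duct-like cells. Atp6v1c2 was the least depleted of the 4, at 9.59, 10.0 and 9.66 CPM in the basal sort and 20.6, 17.9 and 17.4 CPM in the untreated epithelium.

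The CPM of the general genes overlapped or lay close in both sorts. Atp6v1a had 94.9, 98.3 and 98.6 CPM in the basal sort and 106, 95.3 and 96.8 CPM in the untreated epithelium, and Atp6v0c 438, 458 and 512 CPM in the basal sort and 463, 416 and 434 CPM in the untreated epithelium. With edgeR's scaling for composition, Atp6v1a (-0.55), Atp6v0c (-0.41) and Atp6v0d1 (-0.46) were called lower in the basal sort. With library size alone, which moved the median log2 fold change of all genes to 0.49, Atp6v1a was at -0.033 and not called, Atp6v0c at 0.10 and Atp6v0d1 at 0.057. The 4 tested restricted genes were called lower with both scalings. In all, 7 of 9 members were called in this comparison, all lower, where 72.8% of all tested genes were called (36.0% higher and 36.8% lower), so the share called in either direction is near the background. Both comparisons use the same untreated mice.

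The remaining V-ATPase genes, a list chosen with earlier results of these data known, had 2 of 12 tested genes higher in irradiated ionocyte-like cells, 2 lower and 8 that did not pass, with a median log2 fold change of -0.10 beside -0.020 over all genes. These counts and those of the lists that follow stand beside 15.6% higher and 10.7% lower over all genes tested in ionocyte-like cells, and 19.0% higher and 19.0% lower in granular duct-like cells. Atp6v1g1, the general G gene, had 500 ± 33.4 CPM in irradiated and 404 ± 33.9 CPM in untreated ionocyte-like cells (log2 fold change 0.35, edgeR adjusted p = 0.0097), so it rose along with its restricted paralog Atp6v1g3 but by less. Tcirg1 rose to 40.0 ± 6.18 CPM in irradiated cells, against 24.5 ± 4.59 CPM in untreated ones (edgeR adjusted p = 0.0067). The stalk gene Atp6v1e1 had 529 ± 37.1 CPM in irradiated and 675 ± 61.4 CPM in untreated cells (log2 fold change -0.31, edgeR adjusted p = 0.016), and Atp6ap1, an accessory subunit, fell by 0.41 on the log2 scale. In irradiated granular duct-like cells 6 of 13 were called higher and 0 lower, with a median of 0.28 beside -0.031 over all genes; Tcirg1 (log2 fold change 1.39) and Atp6ap2 (0.58), the prorenin receptor gene, were among the 6.

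The acid-base and chloride partner genes of proton-secreting cells fell in irradiated ionocyte-like cells, where 7 of 9 tested were called lower and 0 higher (median log2 fold change -0.97). Ascl3, a factor known to mark salivary duct progenitors and ionocyte-like cells, had 269 ± 71.5 CPM in irradiated and 700 ± 135 CPM in untreated ionocyte-like cells (log2 fold change -1.35 ± 0.16, edgeR adjusted p = 3.1e-05). Hepacam2, known from kidney intercalated cells, had 349 ± 21.8 CPM in irradiated and 478 ± 51.2 CPM in untreated cells. Foxi1 itself did not pass (log2 fold change -0.23, edgeR adjusted p = 0.19). In irradiated granular duct-like cells 1 of 7 tested partners was higher and 3 were lower, Ascl3 and Bsnd among the lower. In the ionocyte-like cells where these partners fell, Atp6v1g3 was higher and Atp6v1b1 did not pass the test.

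Lysosomal genes were called in both directions, as were genes over all (15.6% higher and 10.7% lower in ionocyte-like cells, 19.0% and 19.0% in granular duct-like cells). In irradiated ionocyte-like cells 7 of 20 were higher and 4 lower (median 0.16), with the protease gene Ctsl at 859 ± 24.1 CPM in irradiated and 642 ± 64.2 CPM in untreated cells (log2 fold change 0.46, edgeR adjusted p = 7.9e-04) and the membrane protein gene Lamp1 at 542 ± 27.3 CPM in irradiated and 434 ± 28.4 CPM in untreated cells. In irradiated granular duct-like cells 7 of 19 were higher and 3 lower (median 0.25), among them Cd63 at 542 ± 36.5 CPM in irradiated and 263 ± 2.99 CPM in untreated cells. Assembly and regulatory factors had 0 of 8 higher in both classes, with 1 lower in ionocyte-like and 3 lower in granular duct-like cells, Ncoa7 (log2 fold change -0.66) among the 3. Of the Ragulator and Rag genes, which tie the pump to nutrient sensing at lysosomes, 2 of 9 were lower in irradiated ionocyte-like cells, including Lamtor4 (log2 fold change -0.56), and 2 of 10 higher in irradiated granular duct-like cells, the last a share near the 19.0% over all genes.

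Across 33 sums of a class in a mouse, from the 3 libraries, the general genes ran together more closely than the restricted ones. Pearson's r on log2(CPM + 1) between pairs of general genes was 0.73 to 0.92. Between pairs of restricted genes it was -0.064 (Atp6v0a4 with Atp6v1g3) to 0.77 (Atp6v0d2 with Atp6v1c2). Atp6v0d2 with Atp6v1b1 gave 0.41 and Atp6v1b1 with Atp6v1c2 0.066. Atp6v1g3 gave 0.72 with Atp6v0d2, 0.58 with Atp6v1b1 and 0.57 with Atp6v1c2. Atp6v0a4 had 10 UMIs in all kept cells and Atp6v1g3 was almost absent from the classes of the basal sort, which limits their values. The genes most like the mean of the 5 restricted members, among 6854 compared, were Wdr72 (r = 0.96), a gene of endosomal acidification in enamel-forming cells, the aspartate aminotransferase gene Got1 (0.95) and Tmem61 (0.95), followed by Tmprss13, Slc9a2, Stap1, Cox7a1, Pde1c, Ascl3 and Slc9a4. Stap1 and Ascl3 were also used to name the ionocyte-like class. Wdr72 had 67.1 CPM in irradiated and 71.0 CPM in untreated ionocyte-like cells. These correlations describe class differences, share libraries and depth, and carry no test.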

How the data were processed

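Gene and hashtag UMI counts were deposited as raw counts per cell barcode; per the submitters' processing notes the authors made them with Cell Ranger 6.1.2 on mm10. Further settings are not given in the sources used here. The members, gene lists and tests were chosen with earlier results of these data known.

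Cells with under 500 genes or over 20% mitochondrial UMIs were dropped. Mice were called with HTODemux (Seurat 5.3.0, R 4.3.3, 5 starting clusters, quantile 0.99). Hashtag doublets were removed, and within-mouse doublets by Scrublet score (scanpy 1.11.5, Python 3.11.15). Cells of the 3 libraries were clustered together (2000 variable genes, 30 components, 15 neighbours, Leiden resolution 1) without V-ATPase genes and without batch correction. A cluster was named after the list with most markers raised (a marker counts from 1.5-fold and 10% of the cluster's cells; 3 markers are needed); mixed clusters (at least 70% of 2 lists) and clusters of low UMI content were set aside, by thresholds set after seeing the clusters.

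Counts were summed per mouse and class where every mouse held at least 20 cells and compared by the quasi-likelihood test of edgeR 4.0.16, which calls limma 3.58.1 (low genes removed by filterByExpr, TMM scaling, p-values adjusted by Benjamini and Hochberg over every gene in the fit and a threshold of 0.05); only the groups compared entered a fit, and the interaction used both classes with the mouse as a block. SE is the log2 fold change over the square root of F. Irradiated intercalated duct-like cells were not tested (12 cells in 1 mouse). CPM use all gene UMIs of the sum. All 10 members are named; of the other lists, the up to 4 genes highest in ionocyte-like cells (1 that the rule names is not reported here), while Atp6v1g1, Tcirg1 and Atp6ap1 were named after their values were seen. On simulated counts the ionocyte-like test recovered 99 of 100 genes changed by a log2 of 2 and 47 of 100 changed by 1, and the interaction 73 and 10. The simulation gave all genes a fixed dispersion of 0.05 that was not estimated from these data, so recovery in these data can differ. Mice with the same hashtag number did not deviate together (correlations of -0.19 to 0.04), so numbers do not pair mice. DESeq2 1.42.0, other filters, scalings, clusterings and leaving out mice were tried. Figures were drawn with matplotlib 3.10.9 and exact tests run with SciPy 1.17.1.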

Additional observations from a re-analysis of the deposited data

Results flagged for a closer look

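The irradiation difference of 5 pump genes was not the same in ionocyte-like and granular duct-like cells by the test of that difference (edgeR, log2 value of ionocyte-like minus granular duct-like). It was -1.06 for Atp6v0d2, -0.75 for Atp6v1h and -0.63 for Atp6v0c, and 1.94 for Atp6v1b1 and 1.24 for Atp6v1c2. Atp6v0d2, Atp6v1b1, Atp6v1c2 and Atp6v1h passed in all 12 alternatives, and Atp6v0c in 11 of 12. Atp6v1b1 rests on 33 irradiated and 51 untreated UMIs in granular duct-like cells, and the part of free RNA from other classes in them was not tested.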

How the results depend on the processing

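In ionocyte-like cells 3 members were called, 2 to 3 when mice were left out in turn, and 1 (Atp6v1g3) with at most 10% mitochondrial UMIs, a setting that kept 593 of 635 irradiated but 116 of 520 untreated cells. In granular duct-like cells 7 were called (7 to 8 with mice left out), over all cells 6 (5 to 6), for the interaction 5 (5 to 5) and in the basal sort 7 (7 to 8); the paralog shares without overlap were 4 (4 to 6). With library size alone the basal sort minus untreated values turned to 0.34 for Atp6v1h (adjusted p = 0.028, range 0.028 to 0.72), 0.10 for Atp6v0c and 0.057 for Atp6v0d1, and with at most 10% mitochondrial UMIs the G3 share of granular duct-like cells turned to -0.24 points; the cause was not tested. Of single values, 22 lost and 9 gained a call: among gains, Atp6v1c2 in ionocyte-like cells without untreated mouse 2 (0.55, adjusted p = 0.0498, range 0.0498 to 0.58) and the Atp6v1g3 interaction with each library clustered alone (5.71, adjusted p = 3.4e-08, range up to 0.91). The replicate block gave Atp6v1b1 over all cells -0.43 (adjusted p = 0.076), lost no other call, and mice share only a number. Over all genes DESeq2 called 953 higher and 513 lower in ionocyte-like cells, against 1389 and 952 with edgeR, and 235 and 224 for the interaction, against 576 and 631; at most 10% mitochondrial UMIs gave 714 and 476, and 259 and 419. Library size alone gave 4697 and 992 over all cells, against 2446 and 2324, and 6730 and 2747 in the basal sort, against 4636 and 4744, with median shifts of 0.27 and 0.49. Giving mice by hashtag share was not run within classes (6 cells in a mouse). Atp6v1b1 in granular duct-like cells was not tested with pump genes left in the clustering or at most 10% mitochondrial UMIs, nor Atp6v1g3 there with at most 10% or libraries clustered alone. Depth limits Atp6v0a4, with 10 UMIs in all.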
